A study of Mus musculus with 2 samples.

Results

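Regions of the mouse adrenal genome where many distal accessible sites lay close together were described from DNase-seq of 2 samples. In DNase-seq the enzyme DNase I cuts DNA that is not packed away, and a peak marks a site where cuts accumulate. The members were chosen by measured values. A peak had to be found in both samples and lie more than 1 kb from every annotated transcript start. Member midpoints then had to be linked in steps of at most 12500 bp into a group of at least 5 peaks. Such a group is called a hub. This gave 1239 member peaks in 201 hubs, out of 26622 shared distal peaks and 48299 shared peaks in all. The members made up 4.65% of the shared distal peaks.

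Both samples were adrenal glands of female B6CASTF1/J mice aged 10 days, hybrids with 1 parent of strain C57BL/6J and 1 of CAST/EiJ, and the label of each names 3 females. They were biological replicates 1 and 2 of 1 group with no treatment given, so no comparison between conditions was possible and every value below is a description without a test. The adrenal gland is mixed tissue: a cortex of steroid-making cells, a medulla of chromaffin cells, a capsule, vessels and nerves. In such a bulk sample, fewer cells of a type with an open site and less opening per cell cannot be told apart. Of the defining markers of the tissue, 6 of 8 cortex genes and 4 of 7 chromaffin genes had a shared peak within 1 kb of a start. So did 5 of 6 capsule and fibroblast, 3 of 6 endothelial, 4 of 5 adipocyte and 2 of 4 Schwann genes. The counts were 1 of 4 for kidney and 1 of 3 each for muscle, lymphocyte and erythroid genes. They were 0 of 3 for liver and 0 of 3 for myeloid genes.

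Distal accessible sites include enhancers, which act on promoters from a distance, and sites of the architectural protein CTCF. Runs of enhancers packed within a few kilobases are a known feature of genes that define a cell's identity, of immediate-early genes and of some chromatin regulators, and linking neighbouring peaks at a set distance is how such runs are usually collected. Transfer RNA (tRNA) genes also form dense clusters in the genome. They are read by RNA polymerase III from a promoter inside the gene, whose B box binds the factor TFIIIC.

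The sequences below show what the highest members looked like. Each is the central 150 bases of the peak, in the mm10 reference, plus strand, 5′ to 3′. The first set holds the highest member of 4 of the 8 hubs with the greatest summed height, shown for the span of contents found there. Capitals mark matches to short motifs, on either strand. In the Kdm6b hub the capitals are the palindromic E-box of the clock factors CLOCK and BMAL1 (CACGTG). In the hub near Gm14488 they are 2 matches to the GC box of the KLF and SP factors (GGGCGG, here on the minus strand) around 1 AP-1 site (TGANTCA). The Nr1d1 member has 2 GC boxes, and the Ptma member has a SOX match (ACAAAGG, minus strand) and 2 NRF1 matches (GCGCANGCG, minus strand).
Kdm6b hub, chr11:69417596-69417745: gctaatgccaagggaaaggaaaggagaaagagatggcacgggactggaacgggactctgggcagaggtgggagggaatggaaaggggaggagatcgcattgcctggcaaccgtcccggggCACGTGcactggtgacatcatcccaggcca
hub near Gm14488, chr2:30712086-30712235: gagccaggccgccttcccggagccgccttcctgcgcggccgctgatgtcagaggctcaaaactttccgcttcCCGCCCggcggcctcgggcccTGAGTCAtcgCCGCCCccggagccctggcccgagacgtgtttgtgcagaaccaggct
Nr1d1 hub, chr11:98773906-98774055: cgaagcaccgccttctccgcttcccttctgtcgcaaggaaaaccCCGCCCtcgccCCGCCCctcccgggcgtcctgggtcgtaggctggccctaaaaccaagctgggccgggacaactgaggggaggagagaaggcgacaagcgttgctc
Ptma hub, chr1:86487556-86487705: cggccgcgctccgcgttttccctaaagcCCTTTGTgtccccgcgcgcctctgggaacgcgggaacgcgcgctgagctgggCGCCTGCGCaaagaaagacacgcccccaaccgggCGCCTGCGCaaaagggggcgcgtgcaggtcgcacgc

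The second set holds members that lie over tRNA genes, because 5 of the 20 highest hubs contained such members. Capitals mark the B box (GTTCGANTC or GTTCGANCC, either strand). The tRNA-Tyr window also has in capitals an E-box of CLOCK and BMAL1 and a PBX and HOX match (TGATTNAT, minus strand). In all 3 windows the box lies near 1 edge, so each window holds part of the gene and sequence beside it.
tRNA-Tyr gene, Btn1a1 hub, chr13:23432996-23433145: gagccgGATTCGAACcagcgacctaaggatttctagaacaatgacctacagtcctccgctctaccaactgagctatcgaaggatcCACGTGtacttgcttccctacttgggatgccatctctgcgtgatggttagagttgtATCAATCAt
tRNA-Val gene, Olfr1423 hub, chr19:12012316-12012465: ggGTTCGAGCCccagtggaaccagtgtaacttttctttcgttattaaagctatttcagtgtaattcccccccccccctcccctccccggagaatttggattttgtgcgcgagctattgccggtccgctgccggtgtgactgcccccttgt
tRNA-Phe gene, Trim27 hub, chr13:21161316-21161465: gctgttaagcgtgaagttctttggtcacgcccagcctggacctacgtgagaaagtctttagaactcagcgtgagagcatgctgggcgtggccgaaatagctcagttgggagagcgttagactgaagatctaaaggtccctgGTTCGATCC

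The hubs were small in number of peaks and wide in span. The number of peaks ran from 5 to 16 with a median of 5, and 147 hubs had 5 or 6 peaks while 14 had 10 or more. Spans ran from 2.14 kb, at Pappa on chromosome 4, to 57.7 kb, with a median of 19.2 kb. All spans together covered 4.02 Mb, or 0.147% of the genome. Neighbouring members were closer than the rule required: the median step was 2.62 kb, and 294 of 1038 steps were under 1 kb. The rule's edges were populated, since 308 linked groups had 4 peaks and 104 had 5. Groups of 4 had a median summed height of 8.41 in replicate 1 and 4.95 in replicate 2, and groups of 5 had 11.2 and 6.49. A further distal peak lay just beyond the linking distance, at up to 15000 bp, in 39 of the groups of 4, and 41 hubs of 5 held a step of 10000 to 12500 bp. The groups thus formed a continuous range across the rule's threshold.

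Hubs gathered on chromosome 11, which held 28 hubs and 192 member peaks. That was 13.9% of the hubs on 4.48% of the genome, and 9.38% of this chromosome's shared distal peaks were members. Chromosome 2 followed with 20 hubs, chromosome 4 with 17 and chromosome 5 with 16. Chromosomes 14 and 19 had 3 each. The X chromosome had 4 hubs with 33 members, which were 6.96% of its shared distal peaks. Some hubs were near neighbours: 33 of 201 had another hub within 100 kb and 61 within 500 kb, while the median gap to the nearest hub was 1949 kb.

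Peak height is the authors' normalised signal, given once per peak, and the height of a hub is the sum over its members. The median member height was 2.06 in replicate 1 and 1.23 in replicate 2. Shared distal peaks outside hubs had medians of 1.48 and 0.855. Members were thus the higher class in both replicates, but not the extremes: the highest member stood at 17.3 in replicate 1 and 7.78 in replicate 2, while the highest peak outside hubs stood at 54.6 and 45.7. Of the members, 54.2% were in the highest of 3 equal classes of all shared distal peaks by height and 14.5% in the lowest. Peaks outside hubs were spread nearly evenly, with 32.3% in the highest class and 34.3% in the lowest. Members held 6.58% of the summed distal height in replicate 1 and 6.39% in replicate 2. The height of a peak decides in part whether it is called in both replicates, which both classes had to be. Members also needed linked neighbours that were called. The part of this choice in the difference was not tested.

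Summed hub height covered a wide range, with no single leader far above the rest. In replicate 1 the sums ran from 4.11 through a median of 13.5 to 51.2, and in replicate 2 from 2.62 through 8.38 to 26.9. The 10 leading hubs held 12.7% of all hub height in replicate 1 and 11.7% in replicate 2. The order was much the same in both: Spearman's rho between the replicates' sums was 0.937 over 201 hubs, which share the same peak regions and the same annotation. Of the 20 highest hubs of each replicate, 14 were in both sets. The number of peaks set only part of the order, with a Spearman's rho of 0.610 between peak number and height.

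**Figure D1:**
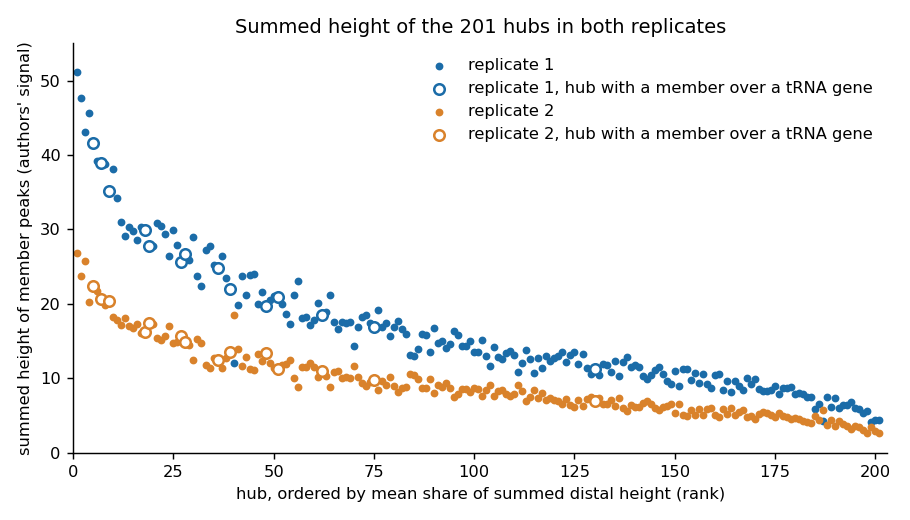
Summed height of the member peaks (authors' signal, vertical axis) for the 201 hubs in order of their mean share of summed distal height (horizontal axis), with 1 point per replicate and open circles for hubs with a member over a tRNA gene. Sums fall from 51.2 to 4.11 in replicate 1 and from 26.9 to 2.62 in replicate 2, and 5 of the 20 highest hubs are open circles.

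The highest hub lay at Kdm6b, which encodes a demethylase that removes the repressive methyl mark from lysine 27 of histone H3. It spanned chr11:69408601-69420500 with 10 peaks, whose heights summed to 51.2 in replicate 1 and 26.9 in replicate 2. It ranked first in both replicates. Its members ran from 1.32 through a median of 4.56 to 9.18 in replicate 1 and from 1.20 through 2.62 to 4.57 in replicate 2, and the highest carried 17.96% and 17.01% of the sum. That highest member, whose centre is printed above, stood at 9.18 and 4.57, lay between genes 3.85 kb from the nearest start and held 5 and 6 footprints. All 10 members held a footprint in both replicates, 6 held a GC box and 2 held CACGTG. No shared peak lay within 1 kb of either annotated start of Kdm6b, where the shorter list of replicate 1 had 1 peak of height 0.749 and that of replicate 2 had none. All 10 members, however, lay within 1 kb of a transcript start in the RefSeq annotation, which lists more starts than GENCODE here, so by RefSeq the Kdm6b sites were not distal.

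No protein-coding gene had its most 5′ start within 50 kb of the second hub. It spanned chr2:30687219-30726022 with 14 peaks and summed to 47.6 and 23.7. The nearest annotated gene was Gm14488, a noncoding transcript, and the nearest coding gene was 1700001O22Rik at 77.6 kb. Its highest member, printed above, stood at 9.78 in replicate 1 and 3.58 in replicate 2, 4.70 kb from a start. GC boxes were found in 5 of the 14 members, and 12 of 14 held a footprint in both replicates. Another, lower hub ranked 35 by height lay 27.6 kb away, and its nearest coding gene was Cstad at 51.9 kb.

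A clock and a retinoid nuclear receptor gene on chromosome 11 each carried a leading hub, 140 kb apart. Nr1d1 encodes REV-ERB alpha, a haem-sensing repressor of the circadian clock. Its hub, chr11:98773781-98789220, had only 6 peaks but summed to 45.7 and 20.3. Its highest member lay in an intron 1.15 kb from a start, stood at 16.9 in replicate 1 and 6.98 in replicate 2, and alone made 36.9% and 34.4% of the sum. CACGTG was found in 2 of its 6 members. The Rara hub, chr11:98929501-98975620, ran through the gene of retinoic acid receptor alpha and held 16 peaks, the most of any hub. It summed to 43.1 and 25.8, with no single member above 6.60 in replicate 1 or 3.58 in replicate 2. The Nr1d1 hub was thus few and tall and the Rara hub many and moderate, with similar totals.

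Another pattern was a short hub with most members over tRNA genes. The hub next to Aurkb, which encodes a kinase of mitosis, spanned 6.04 kb at chr11:69035881-69041920. Its 8 members summed to 41.7 and 22.4, and 7 of them lay over a tRNA gene. Their heights ran from 3.06 to 8.11 in replicate 1 and from 1.47 to 4.61 in replicate 2. The 7 genes encoded tRNAs for 7 different amino acids: Asp, Gly, Ile, Pro, Ser, Thr and Trp.

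**Figure D2:**
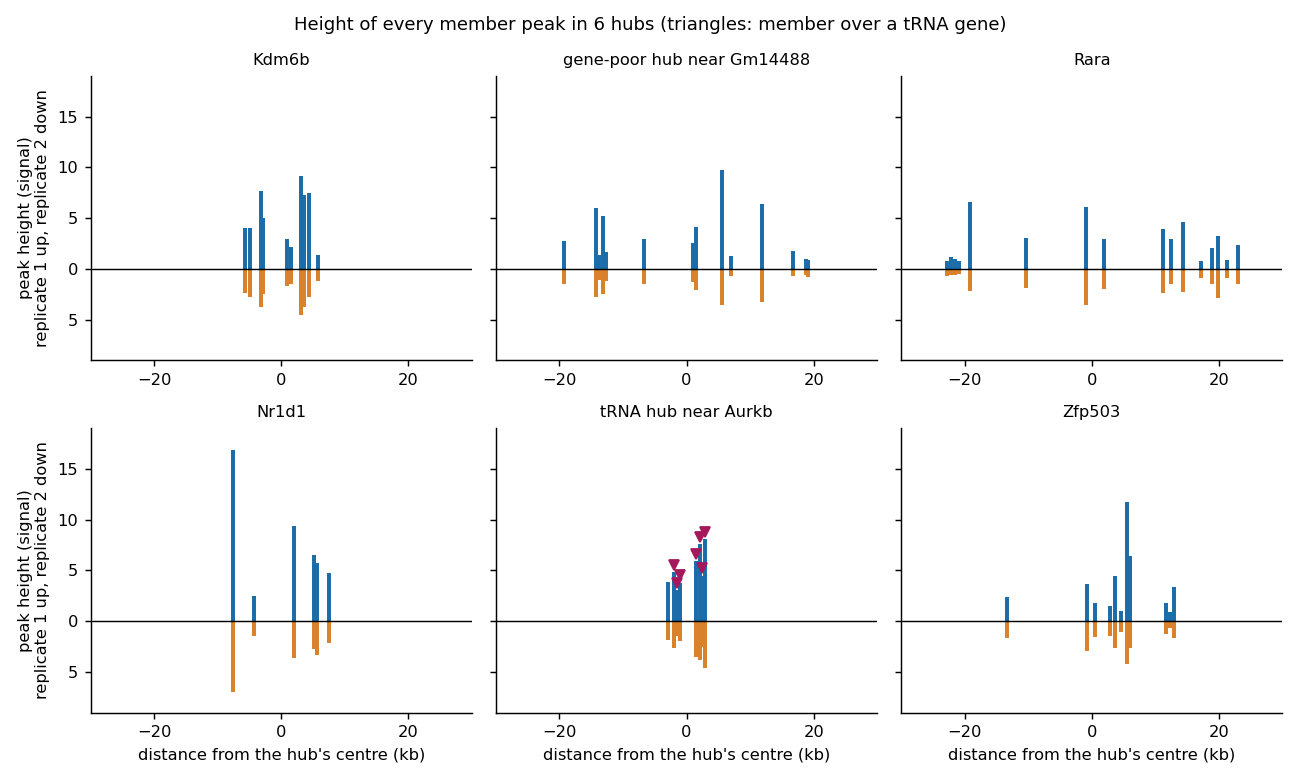
Height of every member peak (authors' signal, replicate 1 upward and replicate 2 downward) against its distance from the hub's centre in kb, in 6 hubs, with triangles for members over a tRNA gene. The Nr1d1 hub is led by 1 member at 16.9 and 6.98, the Rara hub has 16 members of at most 6.60 and 3.58, and the Aurkb hub has 8 members within 6.04 kb.

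The next hubs lay at genes of varied function. Zfp503, a zinc finger gene expressed in development, had 11 peaks at chr14:21969061-21995760 summing to 39.2 and 21.8. Its highest member was exonic, 1.52 kb from a GENCODE start, and stood at 11.8 and 4.22. That member was 1 of 2 in this hub within 1 kb of a RefSeq start. The hub 17.1 kb from Ptma, which encodes prothymosin alpha, had just 5 peaks at chr1:86487461-86509660 summing to 38.7 and 19.8. It held the highest member of all hubs, the site printed above, at 17.3 in replicate 1 and 7.78 in replicate 2. A neighbouring hub 38.9 kb away, at Nmur1 and Tex44, summed to 34.2 and 17.8 over 9 peaks. This stretch of chromosome 1 thus held a pair of hubs among the 12 highest, and Tex44 itself, a testis-expressed gene by its name, had no peak at its start in either replicate.

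An inhibitor gene was also among the leaders. The hub that spans Id3, an inhibitor of basic helix-loop-helix factors, and the start of the cell cycle factor E2f2 had 11 peaks at chr4:136135024-136178200 summing to 31.0 and 17.2. Its highest member stood at 8.07 in replicate 1 and 3.40 in replicate 2, and 4 of its members held a GC box.

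Among the hubs ranked 13 to 20 were those at the T-box gene Tbx2, the AP-1 subunit gene Fosb, the keratin gene Krt8 and Bcl6, a transcriptional repressor. These names were chosen after their values were seen. The Tbx2 hub had 9 peaks summing to 29.1 and 18.1, the Fosb hub 6 peaks summing to 30.3 and 17.1, and the Bcl6 hub 11 peaks summing to 27.8 and 17.3. The hub ranked 17 lay by Firre, a long noncoding RNA gene of the X chromosome known for its many CTCF sites, at chrX:50600341-50623440. Its 10 members summed to 30.4 in replicate 1 and 16.0 in replicate 2. GC boxes were found in 5 of the 10 central windows and the CTCF consensus in 0, which says only that those letters are not in these windows.

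Heights were higher in replicate 1 almost throughout, at distal sites in and out of hubs. Of the members, 1155 (93.2%) were higher in replicate 1, and the median log2 ratio of replicate 1 to replicate 2 was 0.74. Outside hubs 93.9% were higher and the median was 0.70. Ratios of hub sums had a median of 0.81 and a range from -0.62 to 1.38 on the log2 scale. In 199 of 201 hubs the sum was higher in replicate 1.

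The exceptions were 2 hubs, picked out after their values were seen, in which every member was higher in replicate 2. The hub near Sfi1, chr11:3153701-3181580, had 11 members summing to 12.1 in replicate 1 and 18.5 in replicate 2, and ranked 124 and 10 there. The hub near Gm15319, chr8:20378484-20389540, had 7 members summing to 4.20 and 5.70. These 18 members were 18 of the 84 that were higher in replicate 2 among all 1239. These 2 hubs had the highest mean shares of repeat-masked bases of all 201, 31.2% at Sfi1 and 26.8% at Gm15319, against a median of 7.21%. The Sfi1 hub also had the lowest mean GC content, 46.1% against a median of 56.8%. The part of repeats and GC content in this difference was not tested. The 2 hubs stood apart from the rest as whole groups, whereas the remaining members of this kind lay in hubs whose sums were higher in replicate 1.

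**Figure D3:**
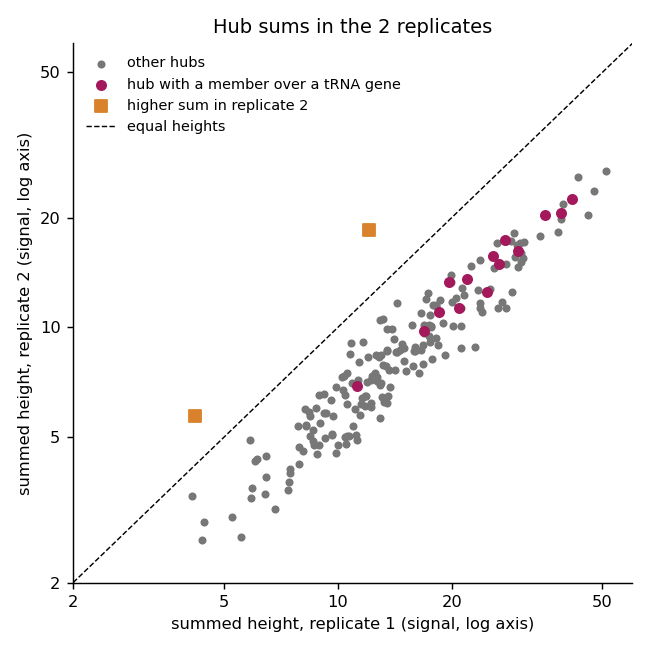
Summed height of each hub in replicate 1 (horizontal) and replicate 2 (vertical), both in the authors' signal on log axes, with the line of equal heights. All but 2 hubs lie below the line, and the 2 squares above it are the hubs near Sfi1 (12.1 and 18.5) and Gm15319 (4.20 and 5.70).

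Footprints are short stretches inside open chromatin where bound protein shields DNA from cutting. A footprint was called in both replicates in 1135 members, 91.6% (exact binomial 95% interval 89.9 to 93.1), and in 95.2% (94.9 to 95.4) of distal peaks outside hubs. Members were higher and wider peaks, with a median width of 240 bp against 200 bp, yet the share with a footprint was smaller. With the longer peak lists the order was the opposite, 85.8% of members and 81.6% of others. The gap was widest among low peaks. In the lowest of the 3 height classes the share was 74.4% of members and 89.5% of others, in the middle class 88.4% and 96.9%, and in the highest class 98.1% and 99.3%. The intervals of members and others did not overlap in any of them. These intervals cover counting error only, and peaks of 1 hub are not independent. The number of footprints per peak went the other way: 3.45 and 3.24 per member in the 2 replicates, and 2.94 and 2.78 per peak outside hubs. Per kilobase of peak, members held 11.8 and 11.1 footprints and others 12.46 and 11.8. The 104 members without a footprint in both were spread over 76 hubs, and 125 hubs had one in every member.

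**Figure D4:**
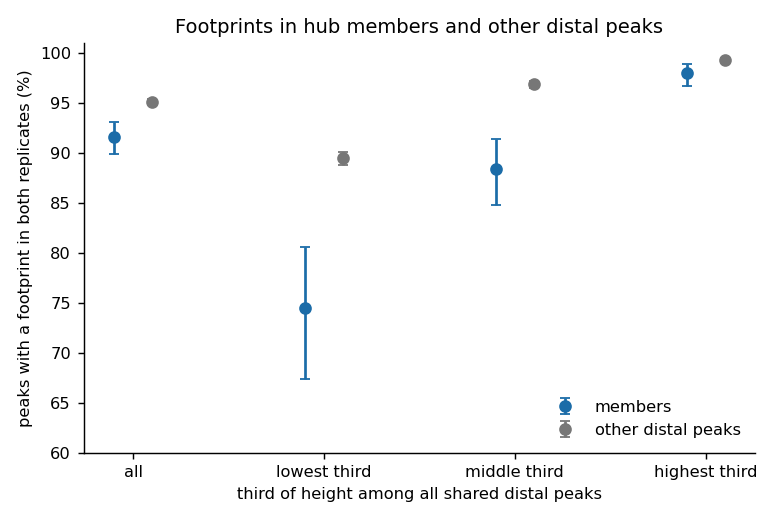
Percent of peaks with a footprint in both replicates (vertical axis, starting at 60) for hub members and other distal peaks, over all peaks and by the 3 height classes, with exact binomial 95% intervals. In the lowest class members stand at 74.4% and others at 89.5%, and in the highest class at 98.1% and 99.3%.

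Members lay somewhat closer to annotated starts, and more often between genes, than other distal peaks. The median distance to the nearest annotated start was 8.30 kb for members and 10.9 kb for others. By GENCODE, 51.3% of members lay between genes, 42.0% in introns and 6.70% in exons, and of others 46.4%, 46.5% and 7.13%. A protein-coding start fell inside 75 of the 201 spans, and 52 hubs lay wholly inside 1 coding gene. By the most 5′ start of the nearest coding gene, 39 hubs lay over 50 kb from it and 11 over 100 kb. Other coding starts were not counted in this distance. The hubs at Bcor and St3gal4, among the 39, held such a start inside the span. Promoter peaks interleaved with the members in 68 hubs, whose spans held 174 of them.

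In sequence, members were richer in G and C. The central 150 bases averaged 57.6% GC (SD 7.08 over peaks) in members and 53.8% (SD 6.53) in others. Over whole peaks, the observed over expected ratio of CpG averaged 0.363 and 0.290, and repeats masked in the reference covered 8.50% and 8.40%. The GC box of the KLF and SP factors, GGGCGG on either strand, was found in 17.3% of members (15.2 to 19.5) and 8.80% of others (8.45 to 9.15), and in at least 1 member of 113 hubs. GC content moved with this difference. In windows under 50% GC the box was in 3.33% of members and 2.62% of others, from 50 to 60% GC in 8.74% and 6.37%, and from 60% GC in 34.8% and 27.6%. Members also had the larger share of windows of 60% GC or more, 35.3% against 16.0%. Within each class of GC, then, the members' share was higher by less than over all peaks.

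CTCF, which holds the bases of chromatin loops, showed the opposite order. Its consensus was in 7.99% of members (6.54 to 9.64) and 13.4% of others (13.02 to 13.87). The order was the same in the highest height class, with 10.6% and 19.5%, and in each class of GC: 10.0% and 18.6% under 50%, 10.6% and 13.1% from 50 to 60%, and 3.43% and 6.248% above. At least 1 member with the consensus was found in 74 hubs. The RUNX motif TGTGGTT was also in a smaller share of members, 1.78% against 3.04%. CACGTG was in 4.20% of members (3.15 to 5.47) and 3.06% of others (2.85 to 3.28), so its intervals overlapped.

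The motif of SF-1, the nuclear receptor that governs steroid-making cells of the adrenal cortex (CAAGGTCA or CAAGGCCA), was in 6.05% of members (4.79 to 7.53) and 5.14% of others (4.87 to 5.42), so the intervals overlapped. The AP-1 site was in 7.18% and 8.10%. The E-box of HAND and TCF21 (CAGATGG or CATCTGG) was in 6.54% and 7.99%, and the ETS motif CCGGAAG in 2.26% and 1.41%. For AP-1, for HAND and TCF21 and for ETS the intervals of members and others also overlapped. Neither the nuclear receptor DR1 element nor the PHOX2 homeobox element matched any member window, for which the exact interval reaches 0.297%. Their shares outside hubs were 0.0512% and 0.0788%, under that limit, so no difference could be seen at this number of members.

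**Figure D5:**
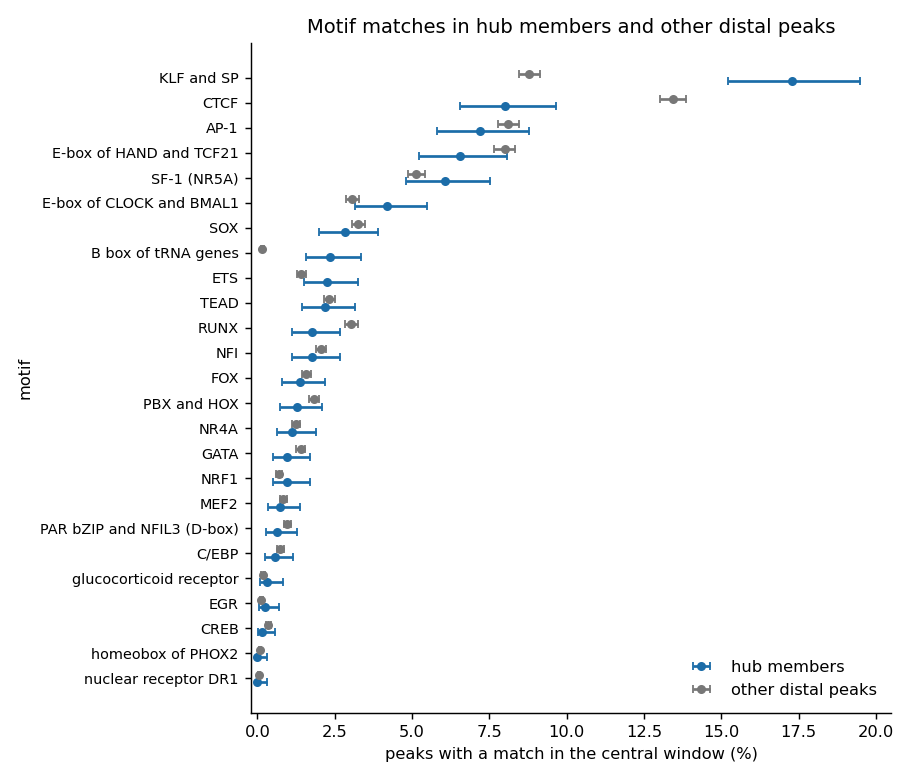
Percent of peaks with at least 1 match to each motif in the central 150 bases (horizontal axis) for hub members and other distal peaks, with exact binomial 95% intervals. The GC box of KLF and SP stands at 17.3% and 8.80%, CTCF at 7.99% and 13.4%, and the B box of tRNA genes at 2.34% and 0.158%.

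The tRNA genes were looked up after the B box and the hub near Aurkb had drawn attention, in the RefSeq annotation, whose 403 tRNA genes are not among the GENCODE starts used to define distal peaks. A tRNA gene lay under 52 members (4.20%) in 14 hubs and under 77 other distal peaks (0.303%). Those 52 members covered 54 tRNA genes, 13.4% of the 403, while 182 (45.2%) lay under any shared peak. The members over tRNA genes were high, with a median of 4.28 in replicate 1 and 2.38 in replicate 2 against 2.02 and 1.19 for the remaining 1187. Outside hubs the 77 peaks over tRNA genes had nearly the same medians, 4.16 and 2.35. All 52 held a footprint in both replicates, and 27 (51.9%) held the B box in the central window.

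The hub at Btn1a1, chr13:23432621-23467200, had 8 of its 11 members over tRNA genes, and the sums were 38.9 and 20.6. Btn1a1, the gene of a milk fat globule protein, had a promoter peak of only 0.568 and 0.824. Further tRNA hubs lay near Olfr1423 (5 of 9 members), Cfap126 (4 of 8), Trim27 (5 of 7) and Hfe2 (5 of 7). With peaks within 1 kb of a tRNA start left out, 187 hubs were formed and 5 of the 20 highest had no hub left, among them those at Aurkb, Btn1a1, Olfr1423 and Cfap126.

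RefSeq starts in general lay near more members than other distal peaks. Within 1 kb of one were 178 members (14.4%) and 1383 others (5.45%). Without those peaks 156 hubs were formed, and 7 of the 20 highest had no hub left: the 5 tRNA hubs, Kdm6b and Tnrc18. Among the 1061 members away from RefSeq starts the GC box was in 16.7%, against 8.26% of others, and the median height was 1.99 and 1.14, against 1.46 and 0.849. Both differences between members and others were therefore also present away from RefSeq starts.

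Near a hub were 423 of 21938 protein-coding genes, with the most 5′ start within 50 kb of a span, which is 1.93% of genes. A shared peak lay within 1 kb of a start in 326 of the 423 (77.1%), against 63.6% of all coding genes, and in 77 of the 86 genes with the start inside a span (89.5%). The median promoter peak of genes near hubs was 6.65 and 3.36, against 5.94 and 3.10 for all.

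The genes of adrenal hormone production were not near hubs. None of the 18 steroidogenesis genes, of the 22 genes of cholesterol synthesis, which supplies the steroid precursor, or of the 28 chromaffin genes, which include the catecholamine enzymes, lay within 50 kb of one. Beside 1.93% of all coding genes, a count of 0 in lists of this size is near the background. With replicate 1 alone, which gave 1876 hubs, 7 steroidogenesis and 7 chromaffin genes were near one, as were 13.7% of all coding genes. Of 25 regulators of the cortex, 1 was near a hub: Nr4a1, an orphan nuclear receptor induced by the pituitary hormone ACTH, 7.55 kb from a hub of 5 peaks summing to 20.1 and 10.1.

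Clock genes were near hubs in 4 of 19 cases (21.1%), beside 1.93% of all coding genes. The count was 0 with a linking distance of 6250 bp, at which 0.707% of all coding genes were near a hub, and 10 with replicate 1 alone, at which 13.7% were. Nr1d1 is described above. Tef, a PAR bZIP factor driven by the clock, lay 29.1 kb from a hub of 5 peaks summing to 23.998 and 11.04. The coding gene nearest that hub was Tob2, at 2.40 kb. Per2, a core repressor of the clock, had its most 5′ start 2.54 kb from a hub of 5 peaks. That hub lay wholly inside the Per2 gene and summed to 16.8 and 7.95. Arntl, which encodes BMAL1, had its most 5′ start 34.7 kb from a hub of 6 peaks. That hub too lay wholly inside the gene, Arntl, and summed to 11.8 and 6.09. All 4 had a shared promoter peak, at 9.86 or more in replicate 1 and 3.48 or more in replicate 2.

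Other lists of response genes had a few members each, to be read beside the 1.93% of all coding genes near a hub. Of 23 immediate-early genes, 3 were near a hub: Fosb, Btg2, an antiproliferative gene, and Gadd45b, a stress sensor. Btg2 lay 15.4 kb from a hub summing to 17.5 and 9.47, whose nearest coding gene was Fmod at 8.79 kb. The Gadd45b start was inside a hub summing to 14.8 and 9.02. Of 22 genes of BMP, TGF-beta, Wnt and hedgehog signalling, the 3 near a hub were all Id genes, which BMP signals induce. The starts of Id3, Id2 and Id1 lay inside hubs of 11, 8 and 6 peaks. The Id2 hub summed to 29.9 and 14.7, and the Id1 hub to 16.0 and 8.63.

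Nuclear receptors were near hubs in 4 of 26 cases: Rara, Nr1d1, Thra, the thyroid hormone receptor alpha gene 33.1 kb from the Nr1d1 hub, and Ppara, a fatty acid sensor 9.87 kb from a hub summing to 16.9 and 10.2. Nr1d1 is counted in this list and in the clock list. Of 18 glucocorticoid-response genes only Ddit4, an inhibitor of mTOR signalling, was near a hub, 30.4 kb from one of 7 peaks summing to 23.4 and 12.7. Of 16 housekeeping genes 2 were, among them the actin gene Actb, 1.47 kb from a hub summing to 20.6 and 12.02. None of 15 hypoxia and glycolysis genes was.

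Lists of other cell types gave 0 or 1 gene each, which in lists of this size is near the background of 1.93% of all coding genes. Cebpb, an adipocyte regulator that many tissues use (1 of 14 in its list), had its start inside a hub of 7 peaks summing to 22.4 and 14.7. Sox18 of endothelium (1 of 18) lay inside a hub summing to 10.6 and 6.16. Meox1 (1 of 17 capsule and fibroblast genes), Slc12a3 (1 of 14 kidney genes) and Myog (1 of 14 skeletal muscle genes) were near a hub but had no shared promoter peak. The hub of Slc12a3 lay wholly inside that gene. None was near a hub among 12 liver, 12 myeloid, 11 lymphocyte, 12 erythroid and 14 brain genes.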

How the data were processed

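DNase-seq peak, footprint and FDR lists of 2 adrenal gland samples were used, each made from 1 sample on mm10, per the labels and the deposited file listing. The aligner, the callers, the way heights were normalised and the read totals are stated nowhere in the labels or file headers used here. The authors deposited 1 normalised signal per peak, called its height here. All heights were whole multiples of 1 step per sample (0.00668 and 0.00620, within 5%), and the median member was 308 and 199 steps. The deposited footprint lists carry 1 constant p-value, 0.01, and the deposited FDR lists give adjusted p-values under 0.05.

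The shorter peak lists (98813 and 55135 peaks) were the main lists. Peaks overlapping by at least 1 bp were merged into shared peaks, with the highest height kept per replicate. Starts came from GENCODE M21, and sequence, repeat masking and tRNA genes from RefSeq's GRCm38.p6, which is mm10, and 0 peaks ended beyond a chromosome. Because the reference is C57BL/6J, CAST/EiJ reads may map less well at sites that differ. Hubs were ranked by the mean over replicates of their percent of summed distal height. Matches to 24 motifs, and to the B box added later, were counted on both strands in the central 150 bp. The NR4A and SF-1 motifs share bases. Of 383 entries in 22 gene lists, 1 could not be matched. Shares carry exact Clopper-Pearson 95% intervals, for counting error only. No test was made, since peaks and hubs are not replicates and there was 1 group.

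Genes were named by rule: for the 12 hubs highest by summed height and the 5 with the most peaks, up to 3 coding genes with a start inside, else the nearest, and for each list up to 4 members within 50 kb of a hub. Members, lists and rule were chosen with earlier results of these data known. The comparisons by tRNA gene, RefSeq start and GC class were chosen after seeing the data. Some hubs and genes that the rule names are not reported here. Linking was tested on simulated data. Python 3.11.15, numpy 2.4.6, pandas 2.3.3, scipy 1.17.1 and pysam 0.24.0 were used, with 17 planned and 4 added alternatives.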

Additional observations from a re-analysis of the deposited data

How the results depend on the processing

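The number of hubs depends on the rule's settings. Against 201 hubs, 1239 members, 6.48% of summed distal height (mean of both replicates), 91.6% of members with a footprint in both replicates and 423 coding genes nearby, a linking distance of 6250 bp gave 84, 511, 2.64%, 88.3% and 155, and 25 kb gave 563, 3695, 18.2%, 93.7% and 1464. At least 4 peaks gave 509 hubs, 2471 members, 12.4% and 957 genes, and at least 8 peaks gave 30, 293, 1.69%, 89.8% with a footprint and 74 genes. The longer peak lists gave 961, 5973, 16.5%, 85.8% and 1733, the upper 50% of heights 58, 349, 4.25%, 96.6% and 159, and an overlap of 50% of both peaks 99, 601, 4.004% and 229 genes. A start distance of 2.5 kb gave 788 members, 4.84% and 228 genes, and coding starts alone gave 8.17%. Added after seeing the data, linking all shared peaks gave 1093, 7182, 17.5%, 88.9% and 3669, and leaving out peaks near tRNA starts or near any RefSeq start gave 5.86% and 4.96%. Without peaks over 50% repeat-masked the values were 193, 1187, 6.37%, 91.5% and 412. Genes within 25 kb numbered 258 and within 100 kb 767.

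With 1 replicate alone the hubs numbered 376 to 1876, the members 2649 to 12367, the height share 10.2 to 24.2%, the footprint share (in that replicate) 78.1 to 89.3% and the genes 815 to 3013. Each of the 201 hubs then overlapped a hub, as also at 25 kb. That overlap was largely fixed in advance, since these settings only add peaks or allow longer steps. At 6250 bp 82 of the 201 overlapped a hub. Under the longer lists the footprint share of members was above that of other distal peaks, 85.8% against 81.6%, the opposite of the order reported. The count of clock genes near hubs was 0 at 6250 bp and at 8 or more peaks. The 0 steroidogenesis and 0 chromaffin genes near hubs became 7 and 7 with replicate 1 alone, where 13.7% of all coding genes were near a hub. No paired analysis was possible because there is 1 group. Read totals were not used here, so what depth limits is known only through the peak lists, of which replicate 2 had the shorter.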

Other observations

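Accessibility within hub spans was not limited to the shared peaks. Outside all peaks of the same replicate, 12.3% of hub-span bases in replicate 1 and 10.1% in replicate 2 were in the deposited lists at an FDR under 0.05, against 1.17% and 0.753% of the genome outside peaks. Distal peaks found in 1 replicate alone also fell in spans. Of 2397 such peaks in replicate 2, 105 (4.38%) lay in a hub span, and of 39226 in replicate 1, 265 (0.676%) did, while the spans cover 0.147% of the genome. The spans were chosen for dense peaks, and the surroundings of other distal peaks were not compared. These values therefore do not set hub spans apart from such surroundings. The hub near St3gal4 held the lowest member heights of any hub, 0.100 in replicate 1 and 0.143 in replicate 2.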
